A study of Mus musculus with 16 samples.

Results

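Genes that mark mature granule neurons of the dentate gyrus, namely Prox1, Calb1, Dsp, C1ql2, C1ql3, Tdo2, Npnt, Il16 and Trpc6, were followed through RNA sequencing of the dentate gyrus of p16 knockout and wild-type mice at rest and after running. The 9 genes were taken by name from the tables of gene abundance. No rule on their values was applied, but earlier results of these data were known when they were chosen. All 9 were listed, in 1 row each, among 24421 gene names, and all 9 were among the 17317 names tested, those whose mean reached 0.1 TPM. TPM is a share of the transcripts of a library that is corrected for gene length.

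The mice were males of the C57BL/6 strain, 1 year old, and either carried p16Ink4a (+/+, p16 WT) or lacked it in all tissues (-/-, p16 KO). The p16 KO allele leaves the overlapping p19Arf gene functional and was made in FVB mice and then bred into C57BL/6. Mice of both genotypes were kept sedentary (CTL) or given a running wheel for 12 days (RUN), which gave 4 groups. The sedentary ones are labelled p16 WT CTL and p16 KO CTL, and the running ones p16 WT RUN and p16 KO RUN. Each group was measured in 4 libraries and each library pooled the dentate gyri of 2 mice, so that single mice cannot be told apart. Replicates 1 to 4 are sedentary wild types (p16 WT CTL), 5 to 8 sedentary knockouts (p16 KO CTL), 9 to 12 running wild types (p16 WT RUN) and 13 to 16 running knockouts (p16 KO RUN).

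The granule neuron is the principal cell of the dentate gyrus. It receives the main cortical input of the hippocampus and sends its axon, the mossy fibre, to CA3 pyramidal neurons and to mossy cells. New granule neurons are born from stem cells of the subgranular zone throughout life, and running is a well known stimulus of this process. p16Ink4a is an inhibitor of cyclin-dependent kinases that restrains the cell cycle. Prox1 is the homeobox transcription factor that sets and keeps granule neuron fate, and Calb1 encodes calbindin, a calcium buffer that granule neurons acquire as they mature. Dsp encodes desmoplakin, a protein that links desmosomes to intermediate filaments. C1ql2 and C1ql3 encode secreted proteins with a C1q domain, which act at synapses, in mossy fibres among others. Tdo2 encodes tryptophan 2,3-dioxygenase, the enzyme that opens the kynurenine pathway. Npnt encodes nephronectin, a matrix ligand of integrin alpha 8 beta 1. Il16 encodes a precursor with PDZ domains, of which a neuronal form exists beside the cytokine interleukin 16. Trpc6 encodes a cation channel gated by diacylglycerol.

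In the mm10 genome the tables place Prox1 on the minus strand of chromosome 1 (chr1:190121777-190170680), C1ql2 on the plus strand of the same chromosome (chr1:120340582-120343174) and C1ql3 on the minus strand of chromosome 2 (chr2:13001887-13010864). Tdo2 (chr3:81958414-81975728) and Npnt (chr3:132881745-132950291) both lie on the minus strand of chromosome 3. Calb1 (chr4:15881264-15906709), Trpc6 (chr9:8544142-8680741) and Dsp (chr13:38151294-38198577) lie on plus strands, and Il16 on the minus strand of chromosome 7 (chr7:83643063-83735490). All 9 are protein-coding genes in the annotation, and each value covers the whole gene with its isoforms. Prox1 is overlapped on the opposite strand by the antisense RNA Prox1os, C1ql3 by Pter and Il16 by Stard5. The library kit marks the strand of the RNA, but whether the abundance step used it is not given in the sources used here, so that reads of these neighbours may enter.

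The stretches before the transcription starts are shown for 3 members whose levels moved together between libraries and for Il16, whose level did not. Each line gives the 250 bases before the RefSeq start (GRCm38.p6, the same assembly as mm10), 5′ to 3′ on the strand of the gene, with each E-box of the form CANNTG in capitals. The E-box is the sequence bound by basic helix-loop-helix factors, among them the granule neuron factors Neurod1 and Neurod2.
C1ql2 (chr1:120340332-120340581, plus strand): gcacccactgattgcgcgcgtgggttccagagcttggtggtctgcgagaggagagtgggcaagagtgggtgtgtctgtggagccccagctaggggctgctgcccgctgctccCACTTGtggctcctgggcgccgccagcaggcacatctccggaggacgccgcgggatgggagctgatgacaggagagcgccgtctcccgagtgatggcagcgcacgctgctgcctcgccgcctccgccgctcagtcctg
C1ql3 (chr2:13010865-13011114, minus strand): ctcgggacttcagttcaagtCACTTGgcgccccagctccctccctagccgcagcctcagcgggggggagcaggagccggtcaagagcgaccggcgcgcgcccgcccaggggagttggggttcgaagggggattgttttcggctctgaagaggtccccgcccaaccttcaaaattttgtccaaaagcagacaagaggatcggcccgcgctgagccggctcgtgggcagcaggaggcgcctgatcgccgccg
Prox1 (chr1:190170828-190171077, minus strand): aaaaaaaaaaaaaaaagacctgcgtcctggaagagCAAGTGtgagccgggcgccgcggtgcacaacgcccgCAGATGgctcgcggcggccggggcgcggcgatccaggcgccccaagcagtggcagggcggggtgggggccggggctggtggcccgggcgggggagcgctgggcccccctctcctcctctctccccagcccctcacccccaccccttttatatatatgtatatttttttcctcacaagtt
Il16 (chr7:83735540-83735789, minus strand): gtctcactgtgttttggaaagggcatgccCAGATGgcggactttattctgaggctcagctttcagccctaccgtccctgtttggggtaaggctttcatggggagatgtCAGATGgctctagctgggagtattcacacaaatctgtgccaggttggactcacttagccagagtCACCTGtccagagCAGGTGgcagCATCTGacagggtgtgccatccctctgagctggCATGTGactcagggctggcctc
C1ql2 and C1ql3 each held 1 E-box, CACTTG, which began 138 and 230 bases before the start. Prox1 held 2, CAAGTG at 215 bases, which is CACTTG read on the other strand, and CAGATG at 179 bases. CACTTG on either strand occurred in 11.6% of the 32851 windows of this length in the RefSeq table. The Il16 window held 6 E-boxes, 3 of them CAGATG or its reverse CATCTG, a form found in 14.4% of all windows. The table also gives starts of Prox1 and Il16 that lie within these genes. The other Prox1 window held 0 E-boxes and the other Il16 windows 1 and 2, and the windows shown are those of the outermost starts. Over all members 12 windows of 8 genes were in the table and Calb1 was not. An E-box was present in 7 of the 12, beside 66.2% of all windows, and CAGATG in 3 of the 12. Dsp, Tdo2 and Trpc6, which varied with Prox1, C1ql2 and C1ql3 between libraries, held 0 E-boxes in their windows, and the 2 Npnt windows held 0 and 2. These matches describe the sequence and were not tested as binding sites.

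The genes were high and medium in abundance. On the TPM scale, which is per length, the order of the means over 16 libraries was C1ql2 with 390 TPM, C1ql3 with 293, Calb1 with 177, Prox1 with 127, Dsp with 70.6, Trpc6 with 48.2, Npnt with 45.7, Il16 with 40.3 and Tdo2 with 25.6. C1ql2 was above 97.6% of the tested genes and Tdo2 above 59.8%. The mean read coverage ranged from 74.6 reads per base of Tdo2 to 1120 of C1ql2. No library listed a member at 0, and the lowest value of any was 14.8 TPM, for Tdo2 in p16 KO CTL replicate 8. The tables hold no read counts, so that the counting error of single genes is unknown.

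Some libraries stood apart, and this bears on the values that follow. The relative depth of the libraries, from the coverage column, ranged from 0.621 to 1.95 of the average gene coverage. The 4 p16 KO RUN libraries (0.796 to 0.893) and the 4 p16 WT RUN libraries (0.621 to 0.877) lay below the 8 sedentary libraries (0.9 to 1.95), so that depth cannot be told apart from running. p16 KO CTL replicate 8 had the highest summed level of 7 CA1 pyramidal neuron markers, 310 TPM beside 87.0 to 188 in the other 15 libraries, and the highest of 6 oligodendrocyte markers. Nuclear RNAs such as Malat1 (7 genes, summed) stood at 969 TPM in p16 WT CTL replicate 2 and at 537 and 474 TPM in p16 KO CTL replicates 6 and 7, against 1810 to 2510 TPM in the other 13. Cdkn2a, whose row holds the transcripts of both p16Ink4a and p19Arf, lay between 0 and 0.586 TPM in all groups, so that it does not check the genotype labels.

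Prox1 varied more between the libraries of a sedentary group than between the groups. It stood at 116, 72.5, 154 and 153 TPM in sedentary wild types, and at 131, 129, 85.3 and 58.1 TPM in sedentary knockouts. After running it stood at 144, 119, 144 and 138 TPM in running wild types and at 145, 122, 127 and 187 TPM in running knockouts. The lowest values were those of p16 KO CTL replicate 8 and p16 WT CTL replicate 2, the highest was that of p16 KO RUN replicate 16, and the 4 groups overlapped. The group means were 124 ± 38.5 TPM (SD, n = 4) in sedentary wild types, 101 ± 35.5 in sedentary knockouts, 136 ± 11.6 in running wild types and 145 ± 29.7 in running knockouts.

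Calb1 gave the same picture. Its libraries read 137, 115, 197 and 218 TPM in sedentary wild types and 197, 212, 140 and 89.2 TPM in sedentary knockouts. After running they read 177, 156, 207 and 213 TPM in running wild types and 191, 182, 173 and 231 TPM in running knockouts. The same 2 sedentary libraries were the lowest and p16 KO RUN replicate 16 was again the highest. The means were 167 ± 48.6, 160 ± 56.2, 188 ± 26.7 and 194 ± 25.7 TPM in this order of groups (SD, n = 4), and the 4 groups overlapped.

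Dsp had the widest range of the 9, 4.13-fold. It stood at 62.5, 26.7, 92.3 and 90.1 TPM in sedentary wild types and at 79.6, 83.5, 55.1 and 29.4 TPM in sedentary knockouts. It stood at 74.6, 64.2, 66.3 and 80.3 TPM in running wild types and at 68.4, 73.8, 73.2 and 110 TPM in running knockouts. The low values of the sedentary groups again belonged to replicates 2 and 8, and both running groups lay between 64.2 and 110 TPM, within the range of the sedentary groups except for replicate 16.

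C1ql2, the most abundant, stood at 404, 293, 610 and 449 TPM in sedentary wild types and at 386, 397, 299 and 199 TPM in sedentary knockouts. Running libraries gave 478, 299, 512 and 314 TPM in running wild types and 354, 354, 339 and 557 TPM in running knockouts. The mean of sedentary knockouts, 320 ± 92.0 TPM (SD, n = 4), was the lowest of the 4, below 439 ± 132 in sedentary wild types and 401 ± 110 and 401 ± 104 in the running groups, and it overlapped with all of them. Its close relative C1ql3 stood at 257, 199, 365 and 377 TPM in sedentary wild types, 326, 314, 234 and 168 TPM in sedentary knockouts, 337, 218, 374 and 283 TPM in running wild types and 325, 246, 293 and 377 TPM in running knockouts. Its means lay between 261 ± 73.9 and 310 ± 55.0 TPM. Both genes were lowest in p16 KO CTL replicate 8.

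Tdo2, Npnt and Trpc6 separated the groups no better. Tdo2 ranged from 14.8 to 35.9 TPM, and both ends were p16 KO CTL libraries, replicates 8 and 6. Npnt ranged from 22.0 TPM in p16 KO CTL replicate 8 to 62.6 TPM in p16 KO RUN replicate 16. Trpc6 ranged from 30.0 to 90.0 TPM, both in sedentary wild types, in replicates 2 and 3. The mean of Trpc6 was 56.5 ± 25.3 TPM in sedentary wild types, 38.8 ± 9.15 in sedentary knockouts, 50.4 ± 12.3 in running wild types and 47.2 ± 5.91 in running knockouts (SD, n = 4).

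Il16 was the exception. It read 41.8, 39.2, 39.4 and 43.3 TPM in sedentary wild types, 42.5, 41.5, 41.9 and 39.2 TPM in sedentary knockouts, 43.9, 40.2, 36.5 and 38.5 TPM in running wild types and 40.9, 40.0, 40.0 and 35.9 TPM in running knockouts. The highest value was 1.22-fold the lowest, and the 2 libraries low in the other members, p16 WT CTL replicate 2 and p16 KO CTL replicate 8, had the lowest Il16 of their groups, 39.2 TPM in each, above the lowest value of either running group. The lowest Il16 value was that of p16 KO RUN replicate 16, the library with the highest Prox1, Calb1, Dsp and Npnt.

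**Figure D1:**
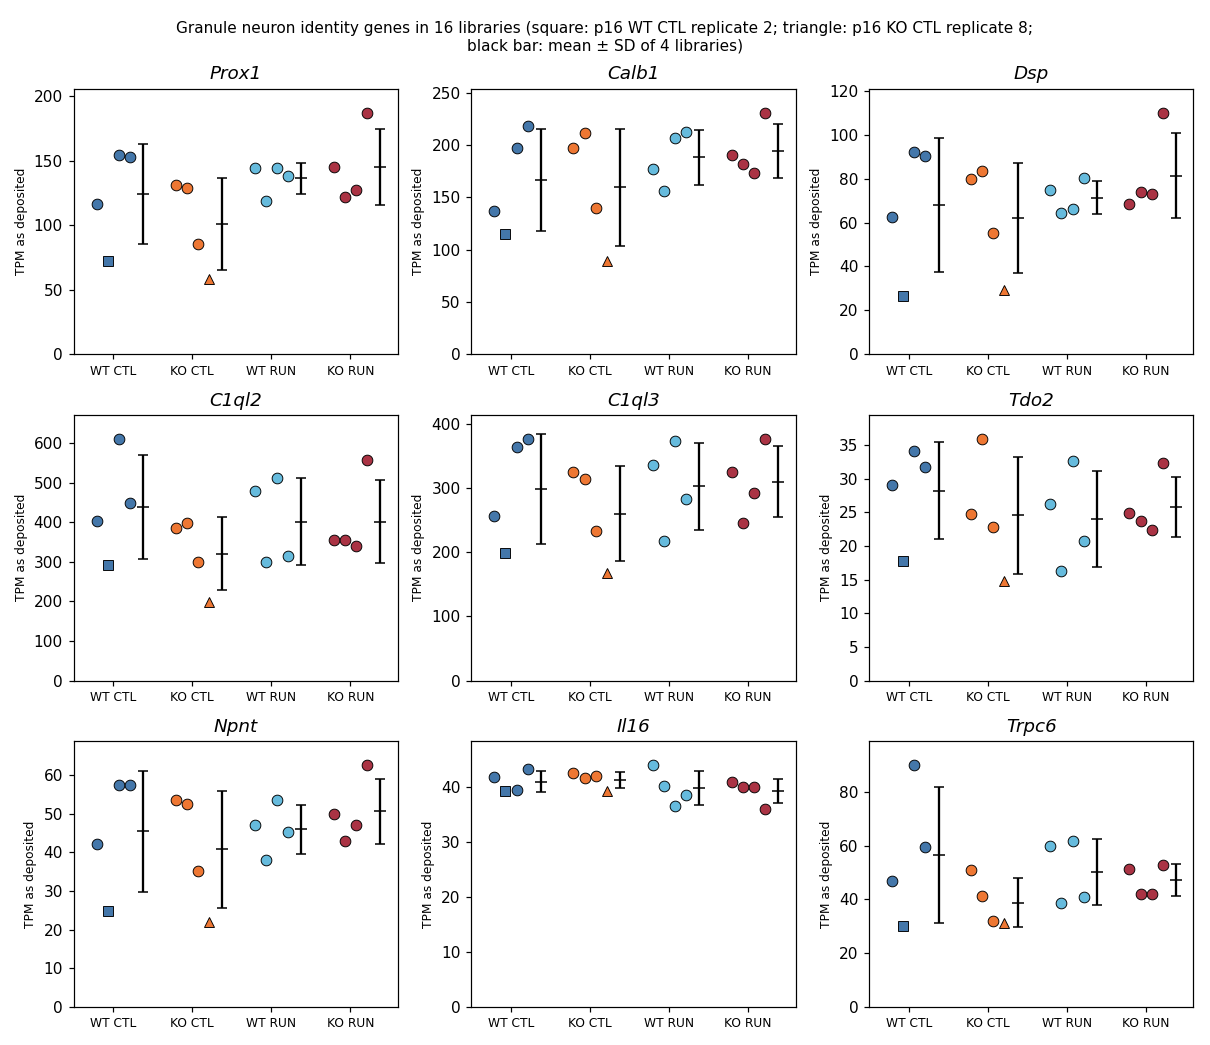
TPM as deposited (vertical axes, from 0) of the 9 genes in the 16 libraries of the 4 groups (horizontal axes), with the mean and SD of each group as a black bar. In 8 genes p16 WT CTL replicate 2 (square) and p16 KO CTL replicate 8 (triangle) sit at or near the bottom of their groups and the groups overlap, whereas Il16 stays between 35.9 and 43.9 TPM.

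The spread within groups set 8 of the 9 apart from most genes of like abundance. The SD of the log2 level around the group means was 0.38 for Prox1, 0.37 for Calb1, 0.55 for Dsp, 0.39 for C1ql2, 0.35 for C1ql3, 0.40 for Tdo2, 0.42 for Npnt and 0.39 for Trpc6. The median over the 10094 genes whose mean reached 10 TPM was 0.128, and the 8 genes lay between the 94.9 and the 98.7 percentile of these genes. The SD of Il16 was 0.09, at the 23.3 percentile. The share of the variance that lay between the groups had a median of 13.1% over the 9 members and of 27.4% over the genes of this abundance. p16 KO CTL replicate 8 was among the 2 lowest libraries for 8 of the 9 genes and p16 WT CTL replicate 2 for 7 of them, while p16 KO RUN replicate 16 was the highest for 4.

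The other 8 genes varied together from library to library. Over 16 libraries, the deviations from the group means correlated with Pearson's r between 0.64 and 0.99 in the 28 pairs of the 8 genes, with a median of 0.86 and a median Spearman rho of 0.84. The closest pair was Prox1 and Npnt. Without the 2 libraries farthest from the median, r lay between 0.53 and 0.97 with a median of 0.79. Il16 had an r between -0.27 and -0.02 with the other 8, and between -0.50 and -0.32 without these 2 libraries. These correlations are given as a description, since the genes share the libraries and TPM values share a fixed total, and the median r of 14429 genes with the mean of the members was 0.01.

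**Figure D2:**
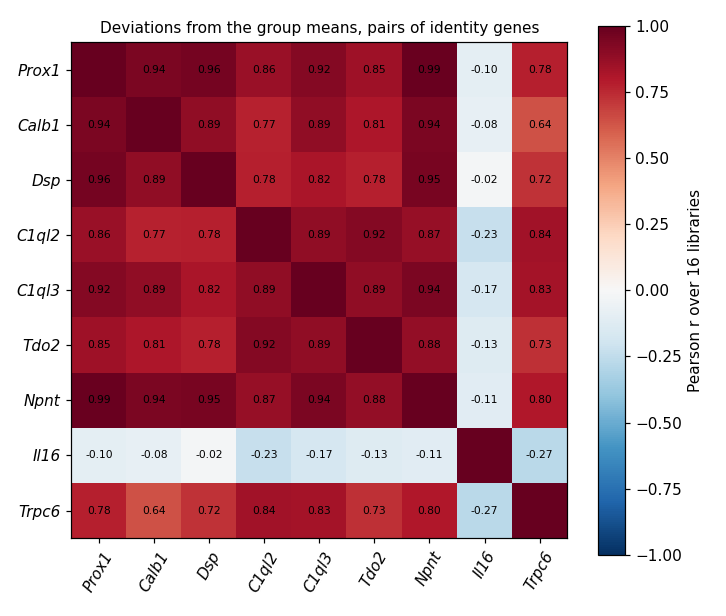
Pearson's r (colour and number) of the deviations from the group means over 16 libraries, for each pair of the 9 genes named on both axes. The block of 8 genes has r of 0.64 to 0.99, and the row of Il16 lies between -0.27 and -0.02.

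The genes whose deviations were most like the mean deviation of the 9 members, among 14429 whose mean reached 1 TPM, were Tiam2 with r = 0.982, Lrtm2 with r = 0.98, Lrrtm4 with r = 0.965, Sipa1l2 with r = 0.962 and Gpc4 with r = 0.958, over 16 libraries. Lrrtm4 is a postsynaptic adhesion protein and Gpc4 a heparan sulfate proteoglycan that binds it. Of 20 further genes known from granule neurons, 7 were among the 100 nearest and 15 among the 1000 nearest, with Tiam1, Maml2 and Stxbp6 at r = 0.95. Of this list Neurod2 (r = 0.10) and Rfx3 (r = -0.28) did not follow the members.

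Markers of oligodendrocytes, interneurons, CA3 and CA1 neurons moved opposite to the members, and those of the other cells followed them little. Over 16 libraries the deviations of the 9 members from their group means were scaled to unit SD and averaged. This mean was set against the mean deviation of each list, so that differences between the groups were removed from both. Pearson's r was 0.94 (rho 0.90) with the 20 other granule neuron genes and -0.91 (rho -0.89) with 6 oligodendrocyte genes. It was -0.82 (rho -0.86) with 7 GABAergic interneuron genes, -0.79 (rho -0.85) with 6 CA3 genes and -0.79 (rho -0.67) with 7 CA1 genes. The r was 0.10 with 6 astrocyte genes, 0.12 with 5 microglia genes, 0.18 with 6 mossy cell genes and 0.13 with 8 newborn neuron genes. It was 0.10 with 5 CA2 genes, -0.17 with 5 endothelial genes, -0.21 with 6 choroid plexus genes and -0.06 with 7 nuclear RNAs. The oligodendrocyte genes summed to 2430 TPM in p16 KO CTL replicate 8 and 2040 TPM in p16 WT CTL replicate 2, against 980 to 2180 TPM in the other 14 libraries. None of the oligodendrocyte, CA1 or CA3 markers that were tested was at 0 in any library. In RNA from whole tissue a smaller share of granule neurons and less RNA of these genes per neuron cannot be told apart, and the part of the dissected tissue in these differences was not tested.

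**Figure D3:**
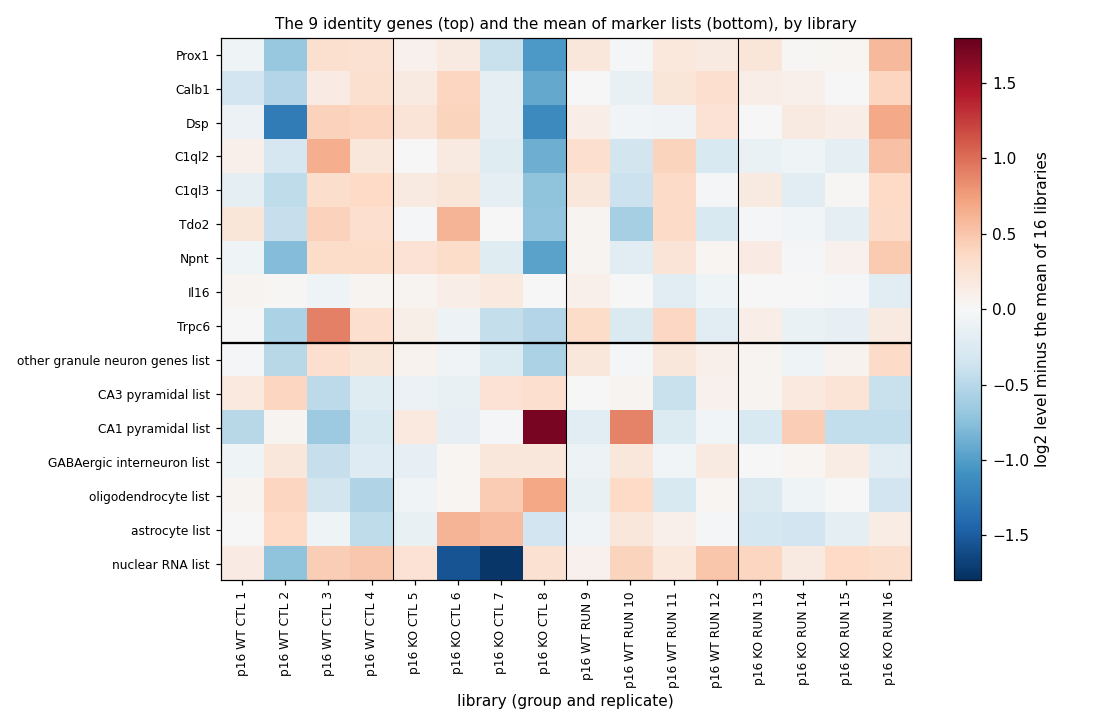
Log2 level minus the mean of the 16 libraries (colour) for the 9 genes (upper rows) and for the mean of 7 marker lists (lower rows), by library (columns, grouped by genotype and activity). The columns of p16 WT CTL replicate 2 and p16 KO CTL replicate 8 are blue in 8 genes and red in the CA3 and oligodendrocyte lists, and the row of Il16 is near 0 throughout.

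**Figure D4:**
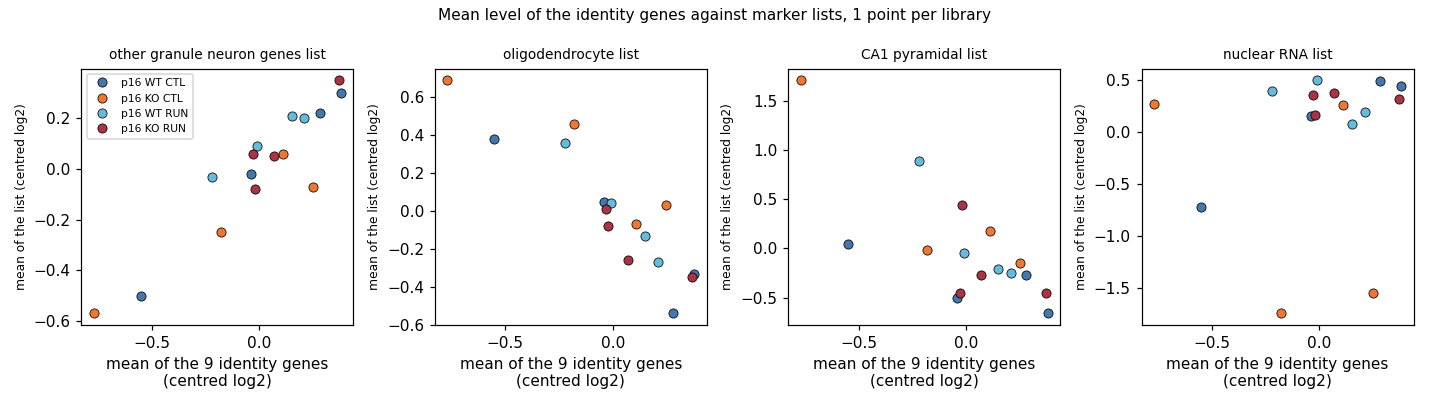
Mean centred log2 level of the 9 genes (horizontal axes) against the mean of 4 marker lists (vertical axes), 1 point per library, coloured by group. The points rise with the other granule neuron genes and fall with the oligodendrocyte and CA1 lists. For the deviations from the group means, which are not plotted, r was 0.94, -0.91 and -0.79 in this order, and -0.06 with nuclear RNA.

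Running in p16 KO mice (Set A, runners minus sedentary) was compared first. The log2 difference was 0.52 for Prox1 (95% interval -0.05 to 1.08), 0.41 for Dsp (-0.29 to 1.1), 0.32 for Npnt (-0.27 to 0.91), 0.29 for Calb1 (-0.27 to 0.84), 0.28 for C1ql2 (-0.25 to 0.80), 0.24 for Trpc6 (-0.09 to 0.56), 0.22 for C1ql3 (-0.25 to 0.68) and 0.06 for Tdo2 (-0.48 to 0.61). Il16 differed by -0.14 (-0.29 to 0.01). The 9 genes had a median of 0.28, beside 0.02 over all tested genes. By limma, a linear model with variances moderated across genes, 0 of the 9 had an unadjusted p under 0.05, beside 18.5% of all tested genes, and 0 an adjusted p under 0.05, beside 0.0173%. The smallest unadjusted p were 0.0659 for Il16 and 0.0691 for Prox1, which adjust to 0.296 and 0.3. The libraries of the 2 groups overlapped for all 9, while 10.4% of the tested genes had no overlap. The exact permutation test of the libraries, two-sided, gave no p under 0.0571, where 0.0286 is the smallest it allows. Without p16 KO RUN replicate 16 the median of the 9 was 0.18, C1ql2 differed by 0.12, Dsp by 0.26 and Tdo2 by -0.04, and without the 3 libraries low in nuclear RNA, a choice made after the data were seen, the median was 0.48. Without p16 KO CTL replicate 8 the median was 0.04. The difference of Prox1 was then 0.27, that of Calb1 0.03 and that of Dsp 0.09, Tdo2 turned to -0.16, and Il16, at -0.17, passed the unadjusted threshold. Prox1 passed it without p16 KO CTL replicate 5 (0.64) or 6 (0.67), and Trpc6 without replicate 5 (0.35). Of all tested genes 27.4% passed it without replicate 5, 11.9% without replicate 6 and 21% without replicate 8.

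Running in p16 WT mice (Set C, runners minus sedentary) gave differences of both signs. They ranged from -0.25 for Tdo2 (95% interval -0.76 to 0.27) to 0.21 for Dsp (-0.53 to 0.94), with 0.18 for Prox1 (-0.26 to 0.62) and 0.20 for Calb1 (-0.20 to 0.60). The median of the 9 was 0.02, beside 0.00 over all tested genes. By limma 0 of the 9 had an unadjusted p under 0.05, beside 4.81% of all tested genes, and 0 were without overlap, beside 3.34%. The smallest unadjusted p was 0.292, for Calb1. Without p16 WT CTL replicate 2 the differences of Prox1 (-0.03), Dsp (-0.17), C1ql3 (-0.13) and Npnt (-0.17) turned below 0, that of Calb1 was 0.06 and the median of the 9 was -0.17.

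The difference between the 2 running responses, the interaction of genotype and running, was 0.41 for C1ql2 (95% interval -0.33 to 1.16), 0.34 for Trpc6 (-0.40 to 1.07) and 0.33 for Prox1 (-0.40 to 1.06). It was above 0 in 8 of the 9 genes, with a median of 0.25 beside 0.02 over all tested genes. In limma 0 of the 9 had an unadjusted p under 0.05, beside 5.48% of all genes, and the smallest was 0.257, for C1ql2. A difference between the genotypes in the response of these genes was not detected, and the intervals of these 3 genes reached from below 0 to above 1 log2 unit. Without p16 KO CTL replicate 8 it was above 0 in 4 of the 9, the median was -0.006, Prox1 stood at 0.09 and C1ql2 at 0.20, and Calb1 (-0.17), Dsp (-0.12), C1ql3 (-0.006) and Npnt (-0.03) turned below 0. Trpc6 stood at 0.09 without p16 WT CTL replicate 3. The median was 0.49 without p16 WT CTL replicate 2 and 0.15 without p16 KO RUN replicate 16. Without the 3 libraries low in nuclear RNA the median was 0.70, and Prox1 (0.72) and Tdo2 (0.82) passed the unadjusted threshold in this term by limma, beside 7.25% of all genes.

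Averaged over both genotypes, running gave 0.35 for Prox1 (95% interval -0.02 to 0.71), 0.31 for Dsp (-0.21 to 0.83), 0.24 for Calb1 (-0.11 to 0.59), 0.20 for Npnt (-0.20 to 0.59) and -0.10 for Il16 (-0.20 to 0.002). The values of C1ql2, C1ql3, Tdo2 and Trpc6 lay between -0.09 and 0.12. By limma over 16 libraries, 0 of the 9 genes had an unadjusted p under 0.05, beside 17.9% of all tested genes, and 0 an adjusted p under 0.05, beside 0.751% or 130 genes. Il16 with 0.0546 and Prox1 with 0.0599 had the smallest unadjusted p, which adjust to 0.29 and 0.301. Prox1 passed the unadjusted threshold without p16 WT CTL replicate 3 (0.41) or 4 (0.40) and without p16 KO CTL replicate 5 (0.41) or 6 (0.43), beside 19.8%, 19.3%, 24.1% and 14% of all genes. The difference of Prox1 was 0.24 without p16 WT CTL replicate 2 and 0.23 without p16 KO CTL replicate 8. Without these libraries in turn Dsp differed by 0.12 and 0.15, Calb1 by 0.17 and 0.11 and Npnt by 0.07 and 0.06, and C1ql2 turned to -0.006 and -0.04. Il16 passed the unadjusted threshold without p16 WT CTL replicate 3, p16 KO CTL replicate 8, p16 WT RUN replicate 9 or p16 KO RUN replicate 14, with differences from -0.12 to -0.11. Of all genes 19.8%, 19.9%, 16.5% and 15.6% passed in these fits.

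The knockout was compared at rest and after running. In sedentary mice (Set B, knockout minus wild type) 8 of the 9 differences were below 0, with -0.40 for Trpc6 (95% interval -1.03 to 0.24), -0.40 for C1ql2 (-0.96 to 0.17) and -0.25 for Prox1 (-0.92 to 0.42), and a median of -0.14 beside -0.01 over all genes. By limma 0 of the 9 had an unadjusted p under 0.05, beside 6.69% of all genes. At this threshold 2 of 7 CA1, 2 of 7 interneuron and 2 of 5 microglia genes were higher in Set B. So was 1 gene each of the astrocyte, oligodendrocyte, CA2 and newborn neuron lists. The median was 0.68 in the CA1 list, 0.41 in the oligodendrocyte list and -0.91 in the nuclear RNA list. Set B holds the libraries that stood apart in these lists, p16 KO CTL replicates 6, 7 and 8 and p16 WT CTL replicate 2. The part of these lists in the differences of the members was not tested. In running mice (Set E, knockout minus wild type) the differences lay between -0.06 for Trpc6 and 0.18 for Dsp (-0.14 to 0.50). Without p16 KO RUN replicate 16 Dsp stood at 0.03 in Set E and 5 of the 9 were below 0, with a median of -0.03. With all 8 libraries 0 of the 9 had an unadjusted p under 0.05 by limma, beside 3.87% of all genes, and the adjusted threshold was passed by 0.00577% of the genes and 0 members. Libraries without overlap were found for 0 of the 9 in Set B, beside 2.7%, and for 0 of the 9 in Set E, beside 2.46%. Averaged over both activities, the knockout gave -0.23 for Trpc6 (-0.60 to 0.14), -0.19 for C1ql2 (-0.56 to 0.19) and values between -0.08 and 0.07 for the other 7, with 0 of 9 at an unadjusted p under 0.05 by limma, beside 7.12% of all genes. Without p16 KO CTL replicate 8 the median in Set B was 0.06, Prox1 stood at -0.003 and C1ql2 at -0.18, and the sedentary difference turned above 0 in Calb1 (0.23), Dsp (0.29), C1ql3 (0.06), Tdo2 (0.06) and Npnt (0.17). Without p16 WT CTL replicate 2 the median in Set B was -0.35, and Trpc6 passed the unadjusted threshold there (-0.64) and over both activities (-0.35), where 17.5% and 15.7% of all genes did so. Without p16 WT CTL replicate 3 Trpc6 stood at -0.15 in Set B and -0.10 over both activities, and C1ql2 at -0.23 and -0.11. Without p16 KO CTL replicate 8 C1ql2 stood at -0.08 over both activities. Without the 3 libraries low in nuclear RNA the median in Set B was -0.62, and C1ql2 (-0.75) and Tdo2 (-0.68) passed the unadjusted threshold in Set B by limma and did so with no overlap between the groups, which were then 2 and 3 libraries, beside 6.68% of all genes under the threshold and 24.5% without overlap.

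Running p16 KO mice were also set against sedentary p16 WT mice (Set D), in which genotype and activity differ at once. Calb1 differed by 0.25 (95% interval -0.14 to 0.65), Dsp by 0.38 (-0.40 to 1.16) and Prox1 by 0.27 (-0.23 to 0.76). Trpc6 (-0.16), C1ql2 (-0.12), Tdo2 (-0.10) and Il16 (-0.07) lay below 0. The median of the 9 was 0.08, beside 0.00 over all tested genes, and 5 of the 9 were above 0. Leaving out single libraries moved this median between -0.065 and 0.19. By limma 0 of the 9 had an unadjusted p under 0.05, beside 8.63% of all genes, and 0 were without overlap, beside 5.68%. Without p16 WT CTL replicate 2 Dsp differed by 0.01, Prox1 by 0.06 and Calb1 by 0.12, C1ql3 (-0.08) and Npnt (-0.03) turned below 0 and Tdo2 (-0.29) passed the unadjusted threshold. Calb1 passed it without p16 WT CTL replicate 4 (0.39). Of all tested genes 11.2% passed it without replicate 2 and 8.7% without replicate 4. At the adjusted threshold the share of all tested genes was 0% in Sets B, C and D, in the interaction and in the averaged knockout comparison. Sets A to E share groups, so that a library such as p16 KO CTL replicate 8 enters several of them.

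**Figure D5:**
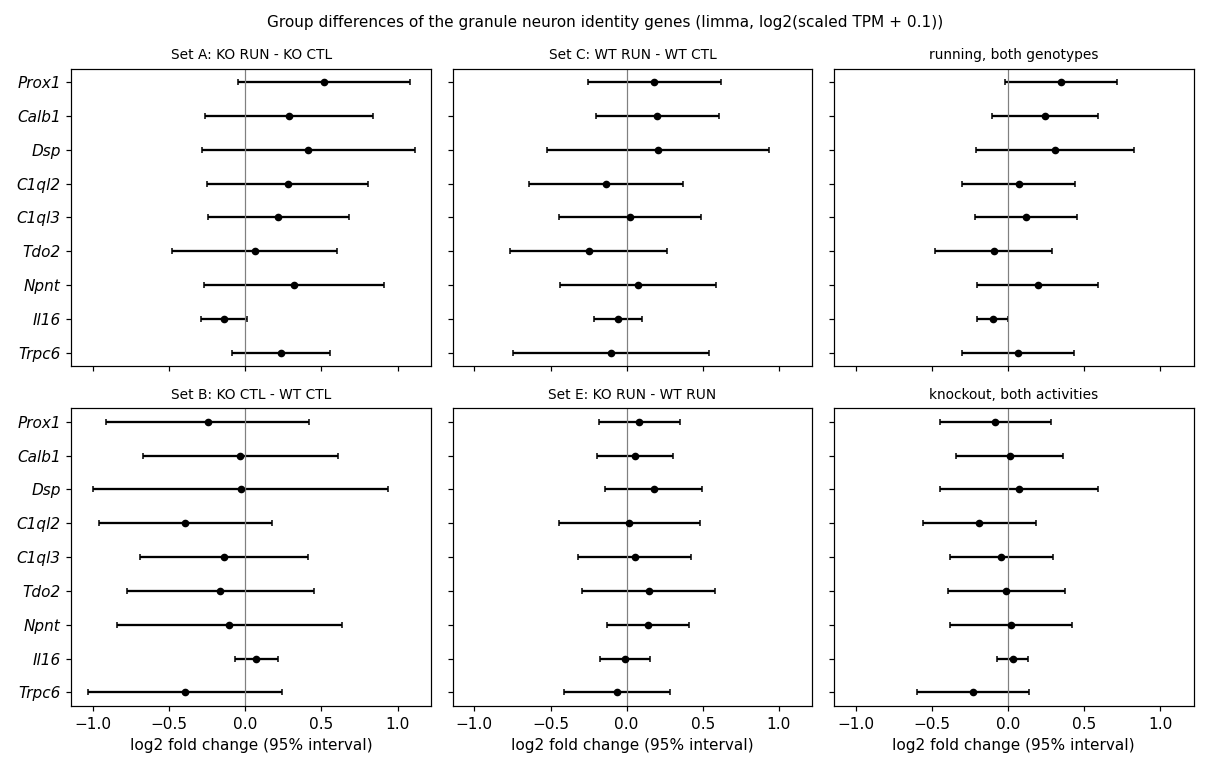
Log2 fold change (points) with its 95% interval (bars) from limma for the 9 genes, in the running comparisons (upper row) and the knockout comparisons (lower row), with a grey line at 0. Every interval reaches across 0, and the intervals of Il16 are the narrowest.

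The members were then compared relative to their own cell type. When the mean level of the 20 other granule neuron genes entered limma as a covariate, a fit chosen after the data were seen, the standard error of Prox1 for running in both genotypes went from 0.172 to 0.0637 and its difference from 0.35 to 0.05. Relative to the other granule neuron genes, Tdo2 was lower with running in both genotypes, by -0.36 (95% interval -0.63 to -0.09, adjusted p = 0.179, limma), and so was Trpc6, by -0.21 (-0.42 to -0.003, adjusted p = 0.306, limma). These 2 of 9 genes stand beside 15.9% of all tested genes under the unadjusted threshold in this fit, a share near the background that is no result about the members. For the knockout in both activities, Dsp was higher by 0.31 (0.10 to 0.52, adjusted p = 0.514, limma) and Npnt by 0.20 (0.07 to 0.34, adjusted p = 0.489, limma), 2 of 9 genes beside 7.07% of all. None of the 9 passed the adjusted threshold in this fit. The covariate itself contains Neurod2 and other genes that differed with running, so that these values are relative to that list and not to the amount of granule neurons.

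The 20 other granule neuron genes, a list held apart from the 9, did hold genes that passed the test. With running in both genotypes 6 of the 20 had an unadjusted p under 0.05 and all 6 were higher, with a median of 0.19 over the list beside 0.01 over all genes and 17.9% of all genes at this threshold. At this threshold 3 of 5 endothelial genes, 2 of 7 nuclear RNAs and 2 of 7 interneuron genes were also higher. Lower were 2 of 6 astrocyte and 2 of 5 microglia genes, and 1 gene each of the CA3, oligodendrocyte and choroid plexus lists. The newborn neuron list had 1 higher gene and the CA2 list 1 in either direction. In Set A 7 of the 20 rose and 0 fell at the unadjusted threshold, beside 10.7% and 7.74% of all genes, in Set C 2 and 0, in Set D 2 and 0, and in Set E and the interaction none in either direction. The list was chosen with earlier results of these data known and is no independent evidence of a direction.

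Neurod2, a basic helix-loop-helix factor of excitatory neurons, was the one gene of the list to pass the adjusted threshold. It stood at 191, 174, 228 and 232 TPM in sedentary wild types, 205, 204, 204 and 191 TPM in sedentary knockouts, 261, 346, 239 and 329 TPM in running wild types and 260, 362, 276 and 302 TPM in running knockouts. All 8 running libraries lay above all 8 sedentary libraries. The log2 difference for running in both genotypes was 0.49 (SE 0.0915, adjusted p = 0.0219, limma), with 0.50 in Set A and 0.49 in Set C. Over 26 alternatives it lay between 0.44 and 0.55 with an adjusted p of 0.0122 to 0.161, under the threshold in 19 of them. The adjusted p was 0.161 without the 3 libraries low in nuclear RNA and 0.0517 without p16 WT CTL replicate 2. Neurod2 is also expressed by pyramidal neurons.

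Pdzd2, which encodes a protein with several PDZ domains, stood at 18.4, 10.2, 25.0 and 28.3 TPM in sedentary wild types, 25.6, 18.0, 15.7 and 10.7 TPM in sedentary knockouts, 28.8, 32.4, 27.4 and 30.0 TPM in running wild types and 34.3, 25.7, 33.3 and 44.0 TPM in running knockouts. It followed the members between libraries (r = 0.82) and was higher with running in both genotypes by 0.78 (adjusted p = 0.0661, limma). Lct, the lactase gene that marks granule neurons in the mouse, was higher by 0.50 (adjusted p = 0.111, limma) and Zbtb20, a zinc finger repressor of hippocampal neurons, by 0.34 (adjusted p = 0.114, limma). Over 26 alternatives Pdzd2 lay between 0.64 and 0.87, with an adjusted p of 0.0338 to 0.256 by limma, under the threshold in 2. Lct lay between 0.39 and 0.59 (0.05 to 0.287) and Zbtb20 between 0.21 and 0.40 (0.0556 to 0.437), under the threshold in 0. In Set A the differences were 0.94 for Pdzd2, 0.64 for Lct and 0.52 for Zbtb20, with no overlap between the groups for each. Rfx3, a transcription factor of ciliated and neural cells, was lower with the knockout in both activities by -0.78 (adjusted p = 0.674, limma).

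Of 33 tested genes related to the members by family or partnership, 3 passed the unadjusted threshold in Set A (9.09%, beside 18.5% of all genes) and 4 in Set D (12.1%, beside 8.63%). For running in both genotypes 3 passed (9.09%, beside 17.9%) and for the knockout in both activities 2 (6.06%, beside 7.12%). In Sets B, C and E and the interaction 1 each passed (3.03%), beside 6.69%, 4.81%, 3.87% and 5.48%. None passed the adjusted threshold by limma. Of 8 tested C1q-like proteins, cerebellins and their receptors, 0 passed for running in both genotypes, and C1ql1 differed by -0.20 in Set A (adjusted p = 0.259) and by 0.23 with the knockout in both activities (adjusted p = 0.674, limma). Of 4 tested calcium buffers other than Calb1, Pvalb (-0.52, adjusted p = 0.233) and Necab2 (-0.20, adjusted p = 0.24) were lower in Set A, and Calb2, a marker of mossy cells and young granule neurons, was higher by 0.46 in Set E (adjusted p = 1) and by 0.31 with the knockout in both activities (adjusted p = 0.674, limma). Necab1 was higher by 0.21 in Set D (adjusted p = 0.514, limma). Pvalb was higher by 0.58 in Set B (adjusted p = 0.625, limma), and its interaction was -0.75 (adjusted p = 0.797, limma). The 4 tested desmosome genes, partners of Dsp, gave 0 calls in Sets A to E, in the interaction and in the averaged comparisons by limma.

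Among 5 tested enzymes of tryptophan breakdown, the pathway of Tdo2, Haao was higher (1.25, adjusted p = 0.476) and Ido2 lower (-0.65, adjusted p = 0.571) in Set D, and Ido2 was lower by -0.40 with running in both genotypes (adjusted p = 0.263, limma). These 5 genes summed to at most 5.06 TPM in a library, below the level of Tdo2 alone. Haao had a mean of 0.247 TPM and was at 0 in p16 WT CTL replicate 3, and Ido2 had a mean of 0.707 TPM. Of the 5 other TRPC channels, Trpc4 was higher in Set C (0.44, adjusted p = 0.985), in Set D (0.32, adjusted p = 0.526) and with running in both genotypes (0.29, adjusted p = 0.216, limma). Of 5 nephronectin partners, Fras1, a basement membrane protein, was higher by 0.41 with running in both genotypes (adjusted p = 0.219, limma). Cd4 and Cd9, which bind interleukin 16, gave 0 calls in any of these comparisons by limma.

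Markers of the other cells of the tissue moved beside Set A. In Set A 7.74% of all tested genes were lower and 10.7% higher at the unadjusted threshold. At this threshold 4 of 6 oligodendrocyte genes fell, with Mbp at -0.72 (adjusted p = 0.167), Cnp at -0.39 (adjusted p = 0.192) and Mobp at -0.52 (adjusted p = 0.241), and 2 of 7 CA1 genes fell, Pou3f1 by -1.31 (adjusted p = 0.241) and Gpr161 by -0.61 (adjusted p = 0.267, limma). Pou3f1 peaked at 33.3 TPM in p16 KO CTL replicate 8, beside a median of 5.38 TPM over 16 libraries. Gja1 (-0.41, adjusted p = 0.178) and Slc1a3 (-0.34, adjusted p = 0.241, limma) of the 6 astrocyte genes fell as well. So did Rgs14 of the 5 CA2 genes (-0.39, adjusted p = 0.114), Cpne4 of the 6 tested CA3 genes (-0.32, adjusted p = 0.185, limma) and P2ry12 (-0.41, adjusted p = 0.264) and Csf1r (-0.25, adjusted p = 0.268, limma) of the 5 microglia genes. Pecam1 of the 5 endothelial genes rose (0.53, adjusted p = 0.25, limma), and of the 7 interneuron genes Vip rose (0.33, adjusted p = 0.209, limma) and Pvalb fell. The 6 mossy cell and 6 choroid plexus genes gave 0 calls in Set A. Of the 7 nuclear RNAs, Malat1 (1.62, adjusted p = 0.201) and Kcnq1ot1 (1.12, adjusted p = 0.267, limma) rose. Their list summed to 537 and 474 TPM in p16 KO CTL replicates 6 and 7 but to 2020 and 2070 TPM in replicates 5 and 8. The p16 KO RUN libraries held 1930 to 2300 TPM. In the newborn neuron list Igfbpl1 (1.32, adjusted p = 0.165), Eomes (0.98, adjusted p = 0.215) and Draxin (0.67, adjusted p = 0.266, limma) rose, 3 of 8 genes. All 3 were low, with means over 16 libraries of 1.0, 0.338 and 0.477 TPM, and Eomes was at 0 in p16 WT RUN replicate 9. For Eomes, a factor of intermediate progenitors, the interaction was 2.07 (adjusted p = 0.797, limma). Draxin (0.90), Calcrl (-0.40), Pou3f1 (-1.76), Fibcd1 (-1.27), Rgs14 (-0.42), Pvalb (-0.75) and Cnp (-0.49) also passed the unadjusted threshold in the interaction, each with an adjusted p of 0.797 by limma. None of these passed the adjusted threshold. The part of these lists in the differences of the members was not tested.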

How the data were processed

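Total RNA of the dentate gyrus was sequenced by the authors in 16 libraries of 2 pooled mice each, 4 per group, with an mRNA kit that marks the strand. Groups and replicate numbers come from the labels. Per the submitters' processing notes and the methods of the study, base calls were made with bcl2fastq 2.20, adapters masked with cutadapt 1.11, low-quality bases removed with ERNE, reads mapped to mm10 with STAR and abundances computed with StringTie. The TPM values deposited by the authors are StringTie abundances per gene, corrected for length and given as parts of a fixed library total. FPKM and coverage were deposited in the same tables, and coverage, the mean depth per base of a gene, served only to compare depths. HTSeq counts and DESeq2, which the authors used for their own tests, were not used here.

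Where several rows carried one gene name (112 to 130 names in a library) their values were added. Library factors (0.9204 to 1.0316) were medians of the ratios to the average library, taken from the 13226 genes that reached 1 TPM everywhere. Genes whose mean TPM reached 0.1 were analysed as log2(scaled TPM + 0.1). The tool was limma (version 3.58.1, under R 4.3.3) with moderated variances and a variance trend. All fold changes are on this scale, which understates changes of low genes. Sets A to E used the 8 libraries of their groups, and the interaction and the averages used 16. Adjusted p-values follow Benjamini and Hochberg for the 17317 genes, and an unadjusted p under 0.05, the threshold of the study, was counted too. Exact two-sided permutation tests (35 arrangements per set) were made with NumPy 2.4.6, and Spearman's rho was computed with SciPy 1.17.1. The procedure was tested on simulated data.

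The 9 members, the 14 marker lists and the 7 lists of related genes were chosen with earlier results of these data known. Named were the members, list genes with an unadjusted p under 0.05 (at most 4 of smallest p per list and comparison for granule and related genes, and at most 3 per list in Set A or the interaction for other cells) and the 5 genes nearest to the members. Other genes were named after their values were seen, and 1 result that the rule would name is not reported here. Alternatives covered filters, pseudocounts, scaling, FPKM, the fit and single libraries left out. The number of identical pairs of libraries was 0, and replicates correlated with r between 0.972 and 0.985 over genes. P-values measure the spread between pools of mice.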

Additional observations from a re-analysis of the deposited data

Results flagged for a closer look

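Each of the 9 members was checked in each of the 4 groups for a library far from the other 3, and chance flags about 1 in 20 groups. In p16 KO RUN the highest library of Dsp, replicate 16, stood at 110 TPM while the others lay between 68.4 and 73.8 TPM, a gap of 0.87 of the whole range. The same library held the highest C1ql2 of its group, 557 TPM beside 339 to 354 TPM, a gap of 0.932 of the range. It was also the library with the highest mean level of the 20 other granule neuron genes.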

How the results depend on the processing

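With limma as described 0 members passed the unadjusted threshold in each comparison. Filtering at a mean of 1 TPM, pseudocounts of 1 and 0.01, FPKM, a joint fit of the 16 libraries, a fit lacking the variance trend and the highest value per gene name left these counts at 0. The running average below is running in both genotypes, and the knockout average is the knockout in both activities. With TPM as deposited the count was 1 in Set A and 1 in the running average, both Prox1, beside 18.5% and 17.9% of all genes. It was 1 in the running average, Il16, with no filter and with quantile normalization, beside 16% and 17.4% of all genes. Under quantile normalization 1 member was without overlap in Set A, beside 10.4% of all genes. Leaving out single libraries gave 0 to 2 members called in Set A, 0 to 1 in Set B, 0 to 1 in Set D, 0 to 2 in the running average and 0 to 1 in the knockout average, and 0 to 1 without overlap in Sets A and D. In the same fits 11.7% to 27.4% of all genes were called in Set A, 3.22% to 17.5% in Set B, 6.53% to 11.2% in Set D, 13.1% to 24.1% in the running average and 4.16% to 15.7% in the knockout average. The 2 calls in Set A came without p16 KO CTL replicate 5, beside 27.4% of all genes. Without the 3 libraries low in nuclear RNA 2 members were called and 2 were without overlap in Set B, 1 was called in Set D and 2 in the interaction. Set B then set 2 knockout against 3 wild-type libraries, where 6.68% of all genes were called and 24.5% were without overlap. The shares called were 11.2% in Set D and 7.25% in the interaction. With the other granule neuron genes as a covariate the counts were 1 for Sets A, B and E, 2 for Sets C and D, and 2 for either average, beside 14.4%, 5.98% and 5.2% of all genes in Sets A, B and E, 9.16% and 13.6% in Sets C and D and 15.9% and 7.07% in the averages. Both of these alternatives were chosen after the data were seen, and the cause of the shifts was not tested. The count of other granule neuron genes called lay between 6 and 8 in Set A and between 6 and 10 in the running average, but from 1 to 5 in Sets C and D, from 0 to 1 in Set E, and from 0 to 3 in the interaction and in the knockout average.

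Of 1620 log2 differences of the members under alternatives, 1460 kept their direction and side of the threshold, 33 passed it in the same direction and 127 changed sign. The sign changed with TPM as deposited for Calb1 (-0.023), Npnt (-0.016) and Il16 (-0.004) in the knockout average, and with quantile normalization for Calb1 (-0.016) and Tdo2 (0.002) in the knockout average. Without the 3 libraries low in nuclear RNA it changed for Prox1 (-0.029), Dsp (-0.17), C1ql3 (-0.13) and Npnt (-0.17) in Set C, C1ql3 (-0.080) and Npnt (-0.030) in Set D, Trpc6 (-0.066) in the running average and Calb1 (-0.18), Dsp (-0.26) and Npnt (-0.21) in the knockout average. With the covariate it changed for Prox1 (-0.014), Calb1 (-0.19), Dsp (-0.22), C1ql2 (-0.20), C1ql3 (-0.22), Tdo2 (-0.34), Npnt (-0.23) and Trpc6 (-0.032) in Set A, Prox1 (0.067), Calb1 (0.24), Dsp (0.44), C1ql3 (0.11), Tdo2 (0.084) and Npnt (0.25) in Set B, Dsp (-0.021), C1ql3 (-0.11) and Npnt (-0.094) in Set C, C1ql3 (-0.022) in Set D, Calb1 (-0.14), Dsp (-0.17), C1ql3 (-0.047) and Npnt (-0.051) in the interaction, Calb1 (-0.010), Dsp (-0.11), C1ql2 (-0.21), C1ql3 (-0.15), Npnt (-0.14) and Trpc6 (-0.21) in the running average and Prox1 (0.088), C1ql3 (0.11) and Tdo2 (0.14) in the knockout average. Leaving out single libraries turned the sign of further differences. Set C ranged from -0.29 to 0.028 for C1ql2, from -0.13 to 0.16 for C1ql3, from -0.17 to 0.39 for Dsp, from -0.17 to 0.20 for Npnt, from -0.029 to 0.30 for Prox1 and from -0.34 to 0.15 for Trpc6. Set D ranged from -0.28 to 0.046 for C1ql2, from -0.080 to 0.19 for C1ql3, from -0.030 to 0.34 for Npnt and from -0.41 to 0.086 for Trpc6. Set E ranged from -0.14 to 0.14 for C1ql2, from -0.087 to 0.16 for C1ql3, from -0.026 to 0.12 for Calb1, from -0.059 to 0.036 for Il16, from -0.039 to 0.15 for Prox1, from -0.016 to 0.30 for Tdo2 and from -0.17 to 0.040 for Trpc6. The running average ranged from -0.037 to 0.15 for C1ql2, from -0.21 to 0.013 for Tdo2 and from -0.054 to 0.19 for Trpc6. Set B ranged from -0.30 to 0.060 for C1ql3, from -0.20 to 0.23 for Calb1, from -0.40 to 0.29 for Dsp, from -0.35 to 0.17 for Npnt and from -0.38 to 0.060 for Tdo2. The interaction ranged from -0.006 to 0.35 for C1ql3, from -0.17 to 0.26 for Calb1, from -0.12 to 0.58 for Dsp and from -0.028 to 0.49 for Npnt. The knockout average ranged from -0.12 to 0.056 for C1ql3, from -0.075 to 0.14 for Calb1, from -0.11 to 0.24 for Dsp, from -0.10 to 0.15 for Npnt, from -0.19 to 0.040 for Prox1 and from -0.12 to 0.10 for Tdo2. Set A ranged from -0.16 to 0.28 for Tdo2. No paired analysis was possible because the groups share no replicate numbers. The tables hold no read counts, so that the limits set by depth are unknown.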

Other observations

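The other granule neuron genes followed the members between libraries to unequal degrees. Gabrd and Gabra4, subunits of GABA-A receptors, followed the mean deviation of the 9 members with r = 0.92 and 0.86 over 16 libraries. Bcl11b and Neurod1, transcription factors of granule neurons, did so with 0.88 and 0.75, and Zbtb20 and Glis3 with 0.50 and 0.51. These values are a description over libraries that share a fixed total of TPM.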
